A study of Mus musculus with 8 samples.

Results

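Imprinted genes are expressed mainly from 1 parental allele, and 48 mouse imprinted genes that lie outside the distal chromosome 7 and Dlk1-Dio3 domains were followed here, out of 23100 genes in a table of read counts. They were taken by symbol from a fixed list, and all 48 had a row. Of these, 37 belong to 11 clusters or domains and 11 stand alone. By common knowledge 23 are expressed from the paternal and 24 from the maternal allele, and Gnas gives transcripts from both.

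The study looked for target genes of Zac1, a zinc finger regulator of transcription made from Plagl1, which is itself imprinted, and its title speaks of an imprinted gene network. The cells were Min6, an insulin-producing line from a mouse beta cell tumour, kept in DMEM with serum and beta-mercaptoethanol. They were transfected by Lipofectamine either with the plasmid pRK5-Zac1 or, as control, with pRK5-NLSeGFP, which encodes a green fluorescent protein sent to the nucleus. RNA was taken after 16 h, with 4 libraries per plasmid, numbered 1, 2, 3 and 5 in both groups and called biological replicates by the design text. The labels name no sorting, so transfected and untransfected cells were measured together, and in such bulk RNA fewer cells of a type and less RNA per cell cannot be told apart.

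Imprinted genes carry marks laid down in the egg or the sperm, mostly DNA methylation at a control region, that keep 1 parental copy silent. A control region often serves a whole cluster, so that paternally and maternally expressed genes alternate along it, and antisense noncoding RNAs such as Airn silence neighbours on the same chromosome. Many of the proteins act on growth and metabolism. For many of these genes, among them Ddc and most of the maternally expressed ones, the imprint is restricted to some tissues, such as brain or placenta. Read counts do not tell the 2 alleles apart, so the parental labels used here are background and were not measured.

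Libraries held 30.5 to 42.4 M (mega) counts, and the 48 imprinted genes together took 0.484% to 0.545% of them in controls and 0.502% to 0.525% with Zac1. Peg3 alone made up 29.0% to 31.6% of that sum. Plagl1, the check on the labels, stood at 67.7 to 85.4 CPM (read counts divided by the TMM-scaled library total in M) in the controls and at 4119 to 5788 CPM with Zac1 (59.6-fold, edgeR adjusted p = 1.45e-09), plasmid and endogenous reads together. All 12 beta cell markers examined were expressed, with a summed level of 58100 to 74490 CPM in the controls and 60550 to 67780 CPM with Zac1. Summed markers of fibroblasts stayed between 0.804 and 1.51 CPM over both groups, those of acinar and duct cells between 0.908 and 1.51 CPM, and those of endothelial cells between 1.17 and 2.08 CPM. Those of macrophages and leukocytes lay between 4.57 and 6.88 CPM. Markers of other islet hormone cells were far higher, with sums of 1239 to 1678 CPM in the controls and 1332 to 2125 CPM with Zac1. Most of this came from the glucagon gene Gcg, at a mean of 1432 and 1557 CPM. Prss1, Lum and Cdh5 had 0 counts in every library.

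The imprinted genes ranged from strongly expressed to silent. A filter on low counts kept 33 of the 48 for testing, 16 of the 23 paternally expressed, 16 of the 24 maternally expressed, and Gnas. To set genes side by side, CPM was divided by the length of the exons in kb (GENCODE M21, which may differ from the annotation used for counting). On this scale the highest control levels were those of Nnat, Peg3, Slc38a4, Ddc and Gnas, at 231.8 ± 32.6, 117.3 ± 9.60, 94.6 ± 4.98, 71.4 ± 4.25 and 58.5 ± 2.35 CPM per kb (mean ± SD, n = 4). All but Gnas carry the paternal label, which for Ddc holds only in some tissues. Nnat is neuronatin, a small protein of the endoplasmic reticulum, Slc38a4 a transporter of neutral amino acids, Ddc the decarboxylase that makes dopamine and serotonin, and Gnas the stimulatory G protein alpha subunit that couples receptors to cAMP.

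**Figure D1:**
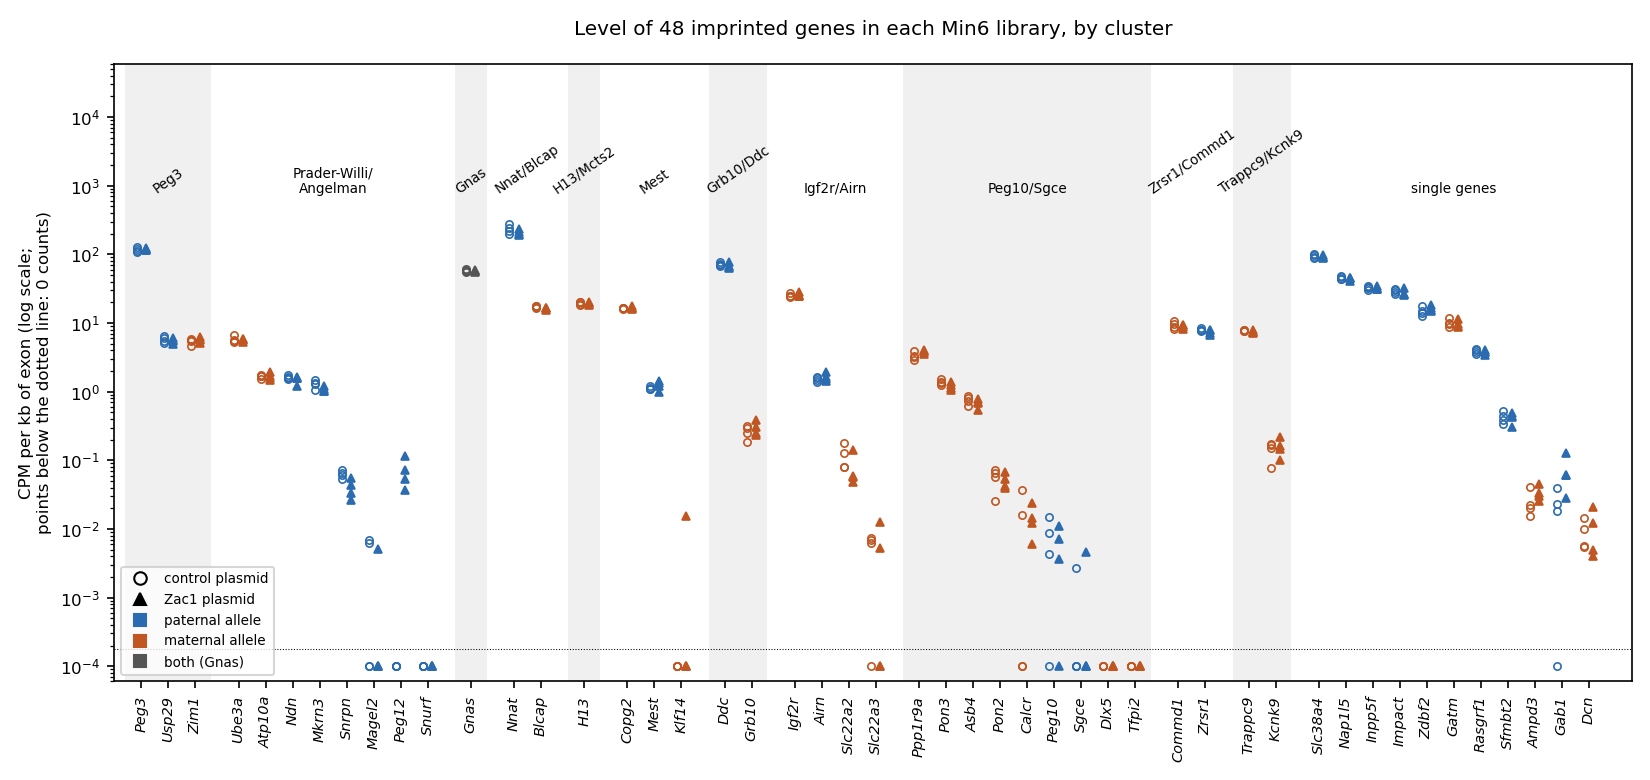
CPM per kb of exon (log axis) of each of the 48 imprinted genes, grouped by cluster, with 1 point per library (open circles control, filled triangles Zac1, blue paternal, orange maternal, grey Gnas); points under the dotted line had 0 counts. Levels run from 231.8 CPM per kb for Nnat in the controls down to genes with no count in any library, and Peg12 is the gene with 0 counts in all 4 controls and counts in all 4 Zac1 libraries.

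In the main fit, which leaves out the replicate number, none of the 33 tested imprinted genes passed the test for a difference between Zac1 and control libraries. The background is 313 of 14331 tested genes called (2.18%) in the same fit, an edgeR quasi-likelihood test in which a call is a Benjamini-Hochberg adjusted p under 0.05. DESeq2 and limma-voom also called 0 of the 33. An alternative edgeR fit that held the replicate number as a block called 2 of the 33, Ppp1r9a and Nnat. That fit called 628 of all 14331 tested genes (4.38%). In the main fit 1 imprinted gene, Ppp1r9a, had an unadjusted p under 0.05, where 7.58% of all tested genes had such a p. In no tested imprinted gene did the 4 Zac1 libraries lie wholly above the 4 controls, as they did in 4.39% of all tested genes, or wholly below, as in 1.4%. The log2 fold change (Zac1 minus control) was above 0 in 13 and below 0 in 20 of the 33, with a median of -0.03, against 45.8% above 0 and a median of -0.01 over all tested genes. The paternally expressed genes had 5 of 16 above 0 and a median of -0.05, the maternally expressed 8 of 16 and a median of -0.01.

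How large a difference the data leave room for differs by gene. The 95% interval of the fold change lay wholly within 1.5-fold in either direction for 30 of the 33 (90.9%, against 82.3% of all tested genes). The 3 that reached past 1.5-fold were the low Pon2 (0.552 to 1.504), Kcnk9 (0.752 to 1.66) and Grb10 (0.840 to 1.502). The narrowest interval was that of Copg2, 0.943 to 1.08.

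**Figure D2:**
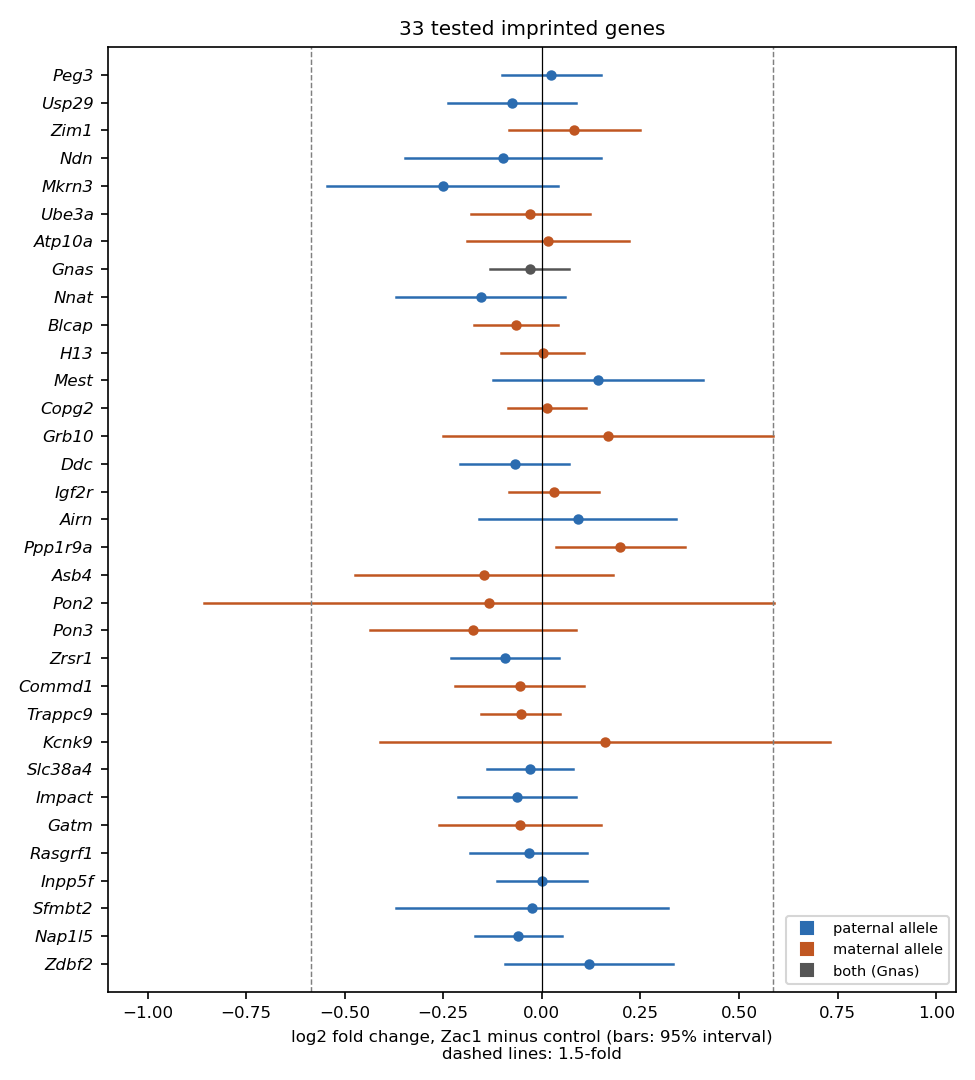
Log2 fold change (Zac1 minus control, points) with its 95% interval (bars) for the 33 tested imprinted genes, in cluster order, coloured by the parental allele expressed; dashed lines mark 1.5-fold. Only the interval of Ppp1r9a leaves out 0, and only those of Pon2, Kcnk9 and Grb10 cross a dashed line.

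Promoter sequences were set beside these values because the 8 letters GGGGCCCC have been reported as a sequence bound by Zac1. RefSeq promoter windows (build GRCm38.p6, 250 bases before to 50 after a start) were found for 40 of the 48 genes, 63 windows in all. GGGGCCCC, which reads the same on both strands, stood in 4 of these windows (6.35%), against 1.08% of all 32851 promoter windows and 1.34% of those of genes in the count table. The 4 belong to Peg3, Usp29, Ppp1r9a and Rasgrf1. The windows of Peg3 and Usp29, which start in opposite directions from 1 shared promoter, overlap and hold the same match. These 2 windows are therefore not separate matches. Member windows were richer in G and C than all windows, with a median of 57.3% against 52.7%. They also held more CG letter pairs, with a median of 15 against 7. The letters TGCCGC, bound by Zfp57 when methylated and searched on both strands, stood in 15 of the 63 windows (23.8%, against 11.6% of all and 14.5% of those of genes in the count table). Among the 15, Snrpn and Snurf share 1 identical window and 2 windows of Mest overlap, so these are not separate matches. Shown are the window of Peg3, the most abundant gene of the set, and that of Peg12, which had counts only with Zac1. Also shown is a window of Ppp1r9a, the gene with the smallest p, picked because it holds GGGGCCCC. The other window of Ppp1r9a, chr6:4902725-4903024, does not hold it. Capitals mark GGGGCCCC, none of the 3 windows holds TGCCGC, and each reads 5′ to 3′ on the gene's strand.
Peg3, chr7:6730370-6730669, minus strand: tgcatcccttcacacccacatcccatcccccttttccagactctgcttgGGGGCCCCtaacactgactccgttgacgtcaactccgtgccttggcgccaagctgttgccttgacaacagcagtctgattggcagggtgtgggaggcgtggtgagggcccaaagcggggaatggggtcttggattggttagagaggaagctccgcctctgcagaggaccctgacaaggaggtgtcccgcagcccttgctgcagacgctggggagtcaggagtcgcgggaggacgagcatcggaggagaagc
Ppp1r9a, chr6:4903061-4903360, plus strand: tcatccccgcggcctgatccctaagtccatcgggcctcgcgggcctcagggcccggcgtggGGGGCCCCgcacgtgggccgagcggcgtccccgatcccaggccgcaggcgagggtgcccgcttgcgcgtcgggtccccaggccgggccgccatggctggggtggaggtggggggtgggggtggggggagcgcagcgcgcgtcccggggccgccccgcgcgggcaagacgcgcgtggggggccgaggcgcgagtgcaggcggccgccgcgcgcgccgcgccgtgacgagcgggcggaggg
Peg12, chr7:62464461-62464760, minus strand: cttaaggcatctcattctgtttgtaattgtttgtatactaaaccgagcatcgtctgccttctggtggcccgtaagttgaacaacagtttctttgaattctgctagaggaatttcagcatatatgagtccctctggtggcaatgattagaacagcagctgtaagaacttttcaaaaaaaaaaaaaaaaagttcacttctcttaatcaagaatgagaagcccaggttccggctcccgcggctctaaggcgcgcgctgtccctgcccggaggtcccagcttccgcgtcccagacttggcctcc
The match begins 201 bases before the start in Peg3 and 189 bases before it in Ppp1r9a, and Peg12 has no match in its window. A match is a description of the letters and not a site shown to be bound.

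The Peg3 cluster on chromosome 7 was expressed throughout. Peg3, a paternally expressed zinc finger protein of cell survival and maternal behaviour, stood at 1423, 1502, 1607 and 1718 CPM in controls 1, 2, 3 and 5 and at 1534, 1568, 1634 and 1618 CPM with Zac1. The Zac1 values all lay inside the span of the controls, and the fold was 1.02 (95% interval 0.932 to 1.11, edgeR adjusted p = 0.980). Usp29, a ubiquitin protease transcribed in the opposite direction from the same promoter, gave 93.1, 99.6, 118 and 110 CPM in the controls and 90.4, 103, 97.8 and 109 CPM with Zac1. Zim1, the maternally expressed zinc finger gene of the cluster, gave 37.0, 44.5, 45.6 and 47.7 CPM and 42.0, 47.6, 45.3 and 50.2 CPM. The groups overlapped in both genes. Per kb of exon, Usp29 and Zim1 stood at 5.83 ± 0.618 and 5.41 ± 0.573 CPM in the controls, where Peg3 had 117.3.

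In the Prader-Willi/Angelman cluster, also on chromosome 7, 4 of 8 genes were tested. Ube3a, the ubiquitin ligase lost in Angelman syndrome and maternal in neurons, was the highest by CPM, at 108, 112, 117 and 139 in the controls and 109, 121, 120 and 117 with Zac1. Control 5 stood above the rest, the groups overlapped, and the fold was 0.980 (0.883 to 1.09). Atp10a, a phospholipid flippase, gave 9.32 ± 0.50 and 9.42 ± 1.11 CPM, and Ndn, a growth suppressor of the MAGE family, 5.94 ± 0.351 and 5.56 ± 0.767 CPM. Mkrn3, a RING finger ligase that restrains puberty, had the second smallest p of the set. It stood at 2.69, 3.44, 3.80 and 3.24 CPM in the controls and 2.82, 2.61, 3.04 and 2.58 CPM with Zac1. The lowest control lay among the Zac1 values, and the fold of 0.840 (0.685 to 1.03) had an edgeR adjusted p = 0.766.

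The other 4 genes of that cluster were too low to be tested. Magel2, another MAGE protein, had 2 counts in all controls together and 1 in all Zac1 libraries. Snrpn, a core protein of the spliceosome, had 2 to 5 counts in each library, and Snurf, encoded upstream on the same transcript, had 0 in all 8. A read in a stretch that both share cannot be given to either, and 100% of the exon bases of Snurf and 10% of those of Snrpn lie in the other gene, so these 2 low values are uncertain.

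Peg12, the Frat3 gene whose product binds the kinase GSK-3, had 0 counts in each of the 4 controls and 8, 5, 4 and 13 counts in Zac1 libraries 1, 2, 3 and 5. The groups did not overlap. With the control group as a whole set to 3 counts as its floor, the 30 reads with Zac1 made a level 8.29-fold higher, both taken over unscaled library totals. Counting error of the 30 reads is not included, so this is not a lower bound. The TMM-scaled mean with Zac1 was only 0.184 ± 0.0908 CPM. In the fit without a filter it had an edgeR adjusted p = 0.0067 and was the 1 imprinted gene called among 45 tested, where 2.14% of all 19900 genes were called. Peg12 was singled out after its values were seen. Its 2 relatives with similar protein sequence had counts in every library: Frat1 12 to 15 in the controls and 14 to 26 with Zac1, Frat2 59 to 78 and 79 to 106. Neither passed the test (log2 0.18 ± 0.28 and 0.14 ± 0.15, SE; edgeR adjusted p = 0.964 and 0.952), and how reads shared between such relatives were counted is not given in the sources used here.

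Gab1, a docking protein of receptor tyrosine kinases that is imprinted in placenta, also had few counts. It had 4, 7, 3 and 0 in the controls and 27, 11, 13 and 6 with Zac1, with the highest value in Zac1 library 1. The ratio of summed counts, scaled to library totals, was 3.38 (95% counting interval 1.86 to 6.56, for counting error only). The groups overlapped in CPM, and without a filter the edgeR adjusted p was 0.219. Of the remaining low genes, Ampd3, an AMP deaminase, gave a ratio of 1.38 (0.746 to 2.63), the cation transporter Slc22a2 0.677 (0.407 to 1.12) and Snrpn 0.645 (0.297 to 1.37).

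**Figure D3:**
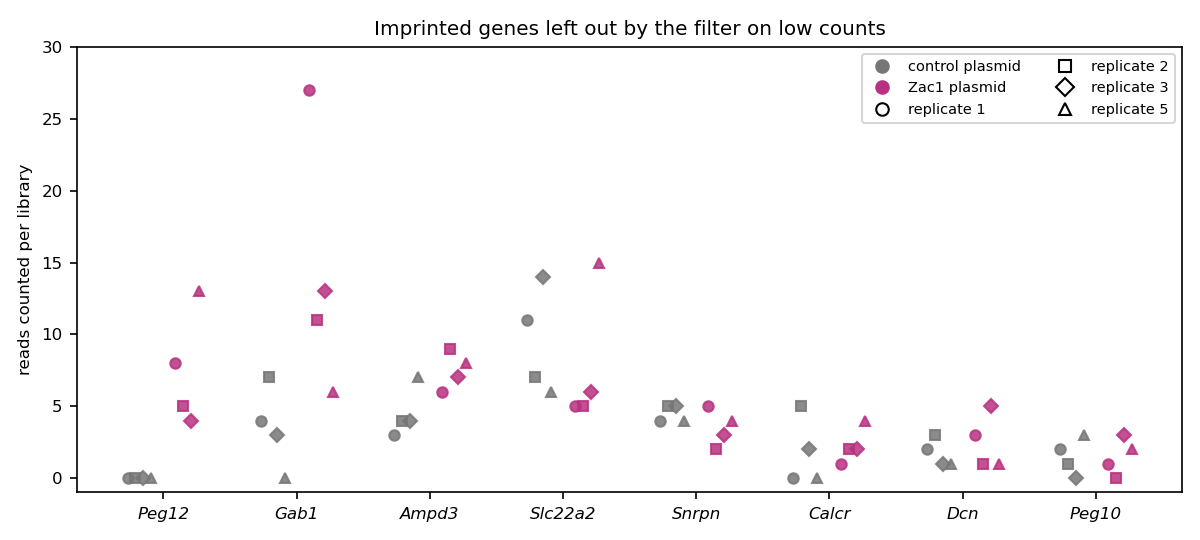
Reads counted per library (vertical axis) for 8 of the 15 imprinted genes that the filter left out, grey for control and magenta for Zac1, with 1 symbol per replicate number. Peg12 sits at 0 in all 4 controls and at 4 to 13 with Zac1, Gab1 reaches 27 in Zac1 library 1, and in the other 6 genes the ranges of the groups overlap.

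In the imprinted cluster around Peg10 and Sgce on chromosome 6, 4 of the 9 listed genes were tested and the others had few counts or none. The paternally expressed Peg10, a retrotransposon-derived gene, had 6 counts in each group and Sgce, epsilon-sarcoglycan, 1 in the controls and 2 with Zac1. The calcitonin receptor Calcr had 7 and 9, and the homeobox gene Dlx5 and the protease inhibitor Tfpi2 had none, which allows up to 0.0226 CPM in the controls and 0.0188 CPM with Zac1. The 4 tested genes of this cluster all carry the maternal label. Ppp1r9a, the actin-binding scaffold neurabin, was the highest of the 4 and had the smallest p of the whole set. It stood at 42.2, 47.1, 47.4 and 55.9 CPM in the controls and 50.7, 55.6, 55.9 and 58.9 CPM with Zac1. Control 5 lay among the Zac1 libraries while the other 3 controls were below all of them. The fold was 1.15 (1.02 to 1.29; log2 0.20 ± 0.08, SE), and it did not pass over all genes (edgeR adjusted p = 0.440). Without control 5 it passed, at log2 0.29 (edgeR adjusted p = 0.032), and at 0.25 with neither library numbered 5 (edgeR adjusted p = 0.0385). With any other single library left out it did not pass. With all libraries and the replicate number as a block it passed, at log2 0.20 (edgeR adjusted p = 0.00567). It did not pass in the blocked fit without both libraries numbered 1, where no imprinted gene was called higher.

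The other tested genes of this cluster were lower. Pon3, a paraoxonase that hydrolyses lactones, had the fifth smallest p, at 5.09, 4.21, 4.46 and 4.68 CPM in the controls and 4.71, 3.52, 3.81 and 4.26 CPM with Zac1. The groups overlapped, and the fold was 0.886 (0.739 to 1.06, edgeR adjusted p = 0.874). Its paralog Pon2 gave 0.406 ± 0.151 and 0.370 ± 0.0941 CPM, and Asb4, a substrate receptor of ubiquitin ligases, 2.97 ± 0.400 and 2.68 ± 0.406 CPM.

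The 3 imprinted domains of chromosome 2 were all active. Gnas gave 639, 685, 626 and 665 CPM in the controls and 618, 644, 642 and 656 CPM with Zac1, a fold of 0.978 (0.913 to 1.048). H13, the signal peptide peptidase, gave 178, 180, 168 and 163 CPM and 176, 171, 164 and 179 CPM, a fold of 1.001 (0.931 to 1.08). In both genes the groups overlapped, and for Gnas 2 controls lay above every Zac1 library. Nnat, which lies in an intron of Blcap on the opposite strand, stood at 359, 437, 499 and 400 CPM in the controls and at 345, 392, 426 and 360 CPM with Zac1. Each Zac1 library was below the control of the same number, and the groups overlapped, with a coefficient of variation of 14.1% in the controls. The fold was 0.898 (0.774 to 1.04, edgeR adjusted p = 0.842). With the replicate number as a block Nnat passed, at log2 -0.15 (edgeR adjusted p = 0.0219), but not when that block was scaled by library totals only. Nor did it pass in the blocked fit without both libraries numbered 2, 3 or 5, where no imprinted gene was called lower. Blcap, which promotes apoptosis, gave 51.9 ± 1.44 and 49.6 ± 1.90 CPM.

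In the Mest cluster on chromosome 6, Copg2, a subunit of the COPI vesicle coat, stood at 82.9, 83.6, 83.4 and 84.9 CPM in the controls and 84.0, 89.5, 80.8 and 83.4 CPM with Zac1. The controls differed by a coefficient of variation of only 1.01%, and the fold was 1.01. Mest itself, a hydrolase-like protein of fat and muscle growth, was low, at 4.44 ± 0.211 and 4.91 ± 0.750 CPM, and Klf14, a regulator of fat metabolism, had 2 counts, both in Zac1 library 5. Copg2 and Mest overlap on opposite strands in 17.8% and 23.1% of their exon bases, so reads there are uncertain.

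On chromosome 11 Ddc, labelled paternal, was high and Grb10, labelled maternal, low. Ddc gave 344, 299, 312 and 320 CPM in the controls and 345, 298, 284 and 288 CPM with Zac1, with the highest value in library 1 of both groups and a fold of 0.953 (0.866 to 1.049). Grb10, an adaptor that restrains the insulin and IGF receptors, gave 2.37 ± 0.509 and 2.66 ± 0.631 CPM. In the second domain of this chromosome, Commd1, a copper-handling and trafficking protein, gave 51.6, 56.7, 62.6 and 48.1 CPM against 55.5, 48.4, 55.5 and 51.1 CPM with Zac1. The splicing factor gene Zrsr1 in its intron had the fourth smallest p. It gave 35.2, 33.9, 36.1 and 37.4 CPM against 30.4, 35.6, 32.3 and 35.4 CPM, a fold of 0.938 (0.853 to 1.03, edgeR adjusted p = 0.871). In both genes the groups overlapped. Commd1 and Zrsr1 lie on opposite strands and share 6.94% and 9.17% of their exon bases, so reads there are uncertain.

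Igf2r on chromosome 17, the maternally expressed receptor that takes IGF2 to the lysosome, was well expressed, with 225, 233, 230 and 254 CPM in the controls and 233, 239, 230 and 260 CPM with Zac1. Library 5 was the highest in both groups, and the fold was 1.02 (0.944 to 1.11). Airn, the paternal antisense RNA that silences Igf2r, gave 5.51 ± 0.429 and 5.87 ± 0.823 CPM, and Slc22a3, a cation transporter silenced by Airn in placenta, had 3 counts in each group. The 2 genes of chromosome 15 were Trappc9, a subunit of a vesicle tethering complex, and the potassium channel Kcnk9. Trappc9 gave 60.4, 63.0, 61.8 and 60.1 CPM against 58.5, 59.1, 61.8 and 56.8 CPM, a fold of 0.963 (0.898 to 1.03). Kcnk9 gave 1.74 ± 0.549 and 1.94 ± 0.587 CPM.

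Among the genes that stand alone, Slc38a4 was the highest, at 411, 379, 395 and 428 CPM in the controls and 388, 390, 381 and 420 CPM with Zac1 (fold 0.980, 0.908 to 1.06). The phosphatase gene Inpp5f gave 269 ± 16.0 and 269 ± 12.6 CPM, and Nap1l5, a nucleosome assembly protein relative, 84.4 ± 3.59 and 81.0 ± 4.15 CPM. Rasgrf1, a calcium-dependent activator of Ras known for a part in insulin release and beta cell mass, gave 41.1, 44.2, 46.4 and 38.5 CPM in the controls and 42.4, 41.2, 44.9 and 37.8 CPM with Zac1. The Polycomb-associated Sfmbt2 gave 3.84 ± 0.677 and 3.77 ± 0.706 CPM. Decorin (Dcn), a proteoglycan of connective tissue, had 7 counts in the controls and 10 with Zac1.

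Some imprinted genes differed between replicate numbers. In a model with the plasmid and the number, 9 of the 33 (27.3%) passed an edgeR test of the replicate number, where 14.6% of all tested genes passed. At an unadjusted p under 0.05 there were 15 of 33, against 28.3% of all. The imprinted genes were also expressed more highly, with a median of 51.7 CPM against 22.4 CPM over all tested genes, and the part of this in the share was not tested. The 9 were Zdbf2, Nnat, Impact, Gatm, Ppp1r9a, Zim1, Ddc, Usp29 and Rasgrf1, 6 of 16 paternally and 3 of 16 maternally expressed. Rasgrf1 did not pass under DESeq2 (adjusted p = 0.155), limma-voom (adjusted p = 0.0540) or either other scaling (edgeR adjusted p = 0.0528 and 0.0551). The labels do not say what a number stands for.

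The 9 followed more than 1 pattern. Zdbf2, a paternally expressed zinc finger gene tied to feeding and growth, stood at 161, 177, 192 and 225 CPM in controls 1, 2, 3 and 5 and at 188, 196, 206 and 230 CPM with Zac1 (edgeR adjusted p = 5.83e-05 for the number). Impact, an inhibitor of the stress kinase GCN2, gave 136, 144, 154 and 158 CPM and 131, 136, 136 and 163 CPM (edgeR adjusted p = 0.00686). In both genes, and in Ppp1r9a and Zim1, number 1 was the lowest and number 5 the highest in both groups. Gatm, the first enzyme of creatine synthesis, went another way, with 35.2, 29.7, 29.4 and 26.4 CPM and 34.1, 26.4, 26.9 and 28.7 CPM (edgeR adjusted p = 0.00701). Number 1 was the highest in both groups for Gatm and Ddc. Nnat was highest in number 3 and lowest in number 1 in both groups (edgeR adjusted p = 6.68e-05), and Rasgrf1 highest in number 3 and lowest in number 5 (edgeR adjusted p = 0.0451).

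Over the 33 tested genes, the same number was the highest in both groups in 17 (51.5%, against 40.4% of all tested genes) and the lowest in both in 15 (45.5%, against 40.5%). Number 1 was the lowest in both for 10 genes and number 5 the highest in both for 8, against 1821 and 2289 of all 14331 tested genes. Number 5 was the lowest in both for 3, against 2544 of all. The count of 9 depends on the libraries numbered 1 and 5, since it was 2 without control 1, 3 without Zac1 library 1, 3 without both libraries numbered 1 and 3 without both numbered 5. Calls over all genes fell in the same fits, from 2090 to 1218, 1115, 1094 and 339. Beta cell genes moved with the number as well, since 4 of the 12 markers passed the same test. The glucagon gene Gcg was highest in number 5, at 1677 and 2125 CPM against 1238 to 1409 CPM. Whether these differences have a part in those of the imprinted genes was not tested.

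**Figure D4:**
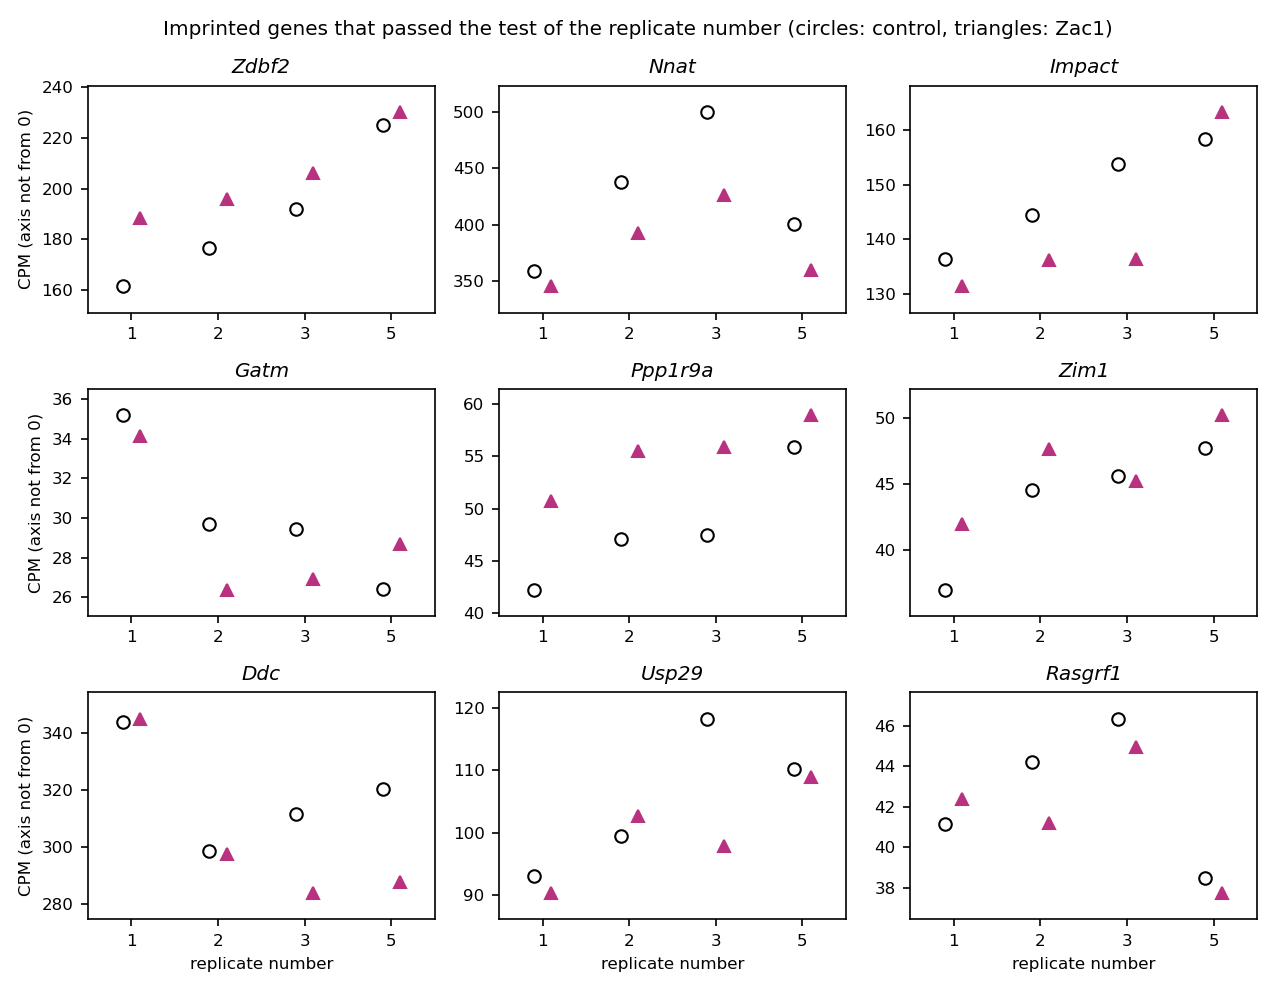
CPM (vertical axes, not starting at 0) of the 9 imprinted genes that passed the test of the replicate number, by number, with circles for control and triangles for Zac1 libraries. Zdbf2, Impact, Ppp1r9a and Zim1 are lowest in number 1 and highest in number 5 in both groups, while Gatm and Ddc are highest in number 1.

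Proteins that keep imprints formed a second list, of DNA methyltransferases, their partners, demethylating enzymes and zinc finger proteins. Of 35 such genes, 30 were tested and none was called by edgeR (against 2.18% of all tested genes), DESeq2 or limma-voom, with a median log2 fold change of 0.00 and 16 of 30 above 0. At an unadjusted p under 0.05 there were 3 of 30 (10%, against 7.58% of all). Kdm1b, a histone demethylase needed for imprints in the egg, gave 21.6 ± 1.39 and 25.2 ± 2.15 CPM (log2 0.22 ± 0.07, SE; edgeR adjusted p = 0.255), Tet3, which oxidises methylcytosine, log2 0.20 ± 0.08 (edgeR adjusted p = 0.547), and Daxx, a histone chaperone, -0.14 ± 0.06 (edgeR adjusted p = 0.559). Yy1 came next, at -0.09 ± 0.05 (edgeR adjusted p = 0.800). With the replicate number as a block Tet3 and Kdm1b passed (edgeR adjusted p = 0.00633 and 0.0327), where 4.38% of all tested genes did. Dnmt1, the enzyme that copies methylation after replication, gave 512 CPM in the controls and 519 CPM with Zac1. Zfp57, the zinc finger protein that guards imprints in the embryo, had 8 counts in all controls and 13 in all Zac1 libraries.

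Of the other transcripts that lie in or beside the same clusters, 0 of 19 tested were called by edgeR, against 2.18% of all tested genes. None had an unadjusted p under 0.05, against 7.58% of all, and the median log2 fold change was 0.01. The fit with the replicate block called 1 of the 19, Chrac1 (log2 -0.23, edgeR adjusted p = 0.0271), where 4.38% of all tested genes were called. Peg13, a paternal noncoding RNA inside Trappc9, gave 314 ± 9.51 CPM in the controls and 302 ± 15.05 CPM with Zac1. Mcts2, a paternal gene inside H13, gave 15.3 ± 0.661 and 15.6 ± 1.17 CPM, and Nespas, the antisense RNA of the Gnas domain, 1.64 ± 0.0670 and 1.90 ± 0.241 CPM. None of the 3 passed the test.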

How the data were processed

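The authors deposited a table of unnormalized counts of reads for 23100 genes in 8 libraries, made with a stranded mRNA kit per the labels' protocols. The submitters' processing notes name bcl2fastq 2.17, FastQC, TopHat2 2.1.1, Bowtie2 2.2.8, HTSeq 0.6.1p1 and the build mm9. The annotation and strand setting of the counting were not given in the sources used here, so overlapping genes are uncertain. The design text speaks of biological replicates without saying what separates them, and p-values measure the spread between these libraries.

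Counts were tested with edgeR 4.0.16 in R 4.3.3: filterByExpr with the groups (minimum count 10), TMM scaling, and a robust quasi-likelihood F test of the plasmid, with Benjamini-Hochberg adjustment over all 14331 genes tested and a threshold of 0.05. Standard errors and 95% intervals come from the F statistic. The replicate number was tested by its terms together in a model with the plasmid. DESeq2 1.42.0, limma 3.58.1 (voom), other scalings, no filter, a replicate block and left-out libraries were alternatives. The steps were tested on simulated data.

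All 48 members are accounted for. Values in every library are given for the 5 smallest p in either test, the highest member by CPM of each cluster, and members called in any of these fits with or without the block. Members and lists were chosen with earlier results of these data known. CPM per kb uses exon lengths of GENCODE M21 and promoters come from RefSeq, both on GRCm38; no coordinates were moved between builds.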

Additional observations from a re-analysis of the deposited data

Results flagged for a closer look

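In 3 of 66 sets of 4 libraries (33 genes in both groups) 1 library lay far from the other 3, where chance alone gives about 1 set in 20. Ndn stood at 4.42 CPM in Zac1 library 5, below 5.83 to 6.12 CPM in the other Zac1 libraries. Impact stood at 163 CPM in Zac1 library 5, above 131 to 136 CPM. Nap1l5 stood at 74.8 CPM in Zac1 library 2, below 82.6 to 83.9 CPM. None of the 3 genes was called between plasmids by edgeR.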

How the results depend on the processing

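The count of 0 imprinted genes called was 0 under DESeq2, limma-voom and both other scalings, 0 to 1 with 1 library left out, 1 without both libraries numbered 5 and 1 at an unadjusted p. Without a filter it was 1 (Peg12). The replicate block called 2, Ppp1r9a (log2 0.20, edgeR adjusted p = 0.00567) and Nnat (-0.15, edgeR adjusted p = 0.0219). Same-numbered libraries deviated together for numbers 1, 3 and 5 (r = 0.258, 0.118 and 0.243 across genes) and hardly for number 2 (0.0491). The labels do not say whether the numbers are pairs. The main fit leaves the numbers out, so differences between them count there as spread between libraries. All calls went from 313 to 628 (4.38%) with the block, those of the imprint keepers from 0 to 2, and those of the other cluster transcripts from 0 to 1 (Chrac1, log2 -0.23, edgeR adjusted p = 0.0271). Added after seeing the data, the block with library totals gave 590 calls, 2 imprinted and 2 keepers, with RLE size factors 602, 2 and 2, and with no filter 925, 5 and 2. The 5 included Gab1 (edgeR adjusted p = 0.0362), Peg12, Ppp1r9a, Nnat and Zdbf2. Without both libraries numbered 1, 2, 3 or 5 the blocked fit called 1, 1, 1 and 2 imprinted genes, 0, 1, 1 and 1 keepers and 415, 576, 516 and 480 genes. The imprinted calls were lower with Zac1 without number 1, so Ppp1r9a was not among them. They were all higher without number 2, 3 or 5, so Nnat was not among them. With library totals in the block Nnat was not among the calls and Zdbf2 was (log2 0.14, edgeR adjusted p = 0.0345). The 9 genes called for the replicate number became 2 to 9 with 1 library left out, and 3 without both numbered 1 or both numbered 5. The count was 11 without both numbered 2 and 9 without both numbered 3. It was 8 under limma-voom and both other scalings, and 13 without a filter. DESeq2 called 9, with Igf2r (DESeq2 adjusted p = 0.0493) in place of Rasgrf1. Without a filter 20 of 45 imprinted genes had a log2 fold change above 0 in place of 13 of 33, with or without the block. All genes called ran from 262 to 362 with 1 library left out, and Plagl1 kept its call throughout. Of the 33 fold changes, 17 kept their sign under every alternative listed at the outset, 0 turned with another scaling, and the largest was 0.358 on the log2 scale in size. Depth limits the 15 untested genes and the low Pon2, Kcnk9 and Grb10.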
